A study of Homo sapiens with 16 samples.

Results

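Whole mRNA of H1299 cells was set against the cytosolic and nuclear RNA of the same line. H1299 is a human non-small cell lung carcinoma line. The libraries were chosen by their labels: the 2 H1299 libraries of whole mRNA and the 4 H1299 libraries of cytosol or nuclear mRNA, which make 6 of the 16 libraries in the series. Of the 23709 genes in the files, 13488 had at least 50 reads summed over these 6 libraries and were tested. Each kind of RNA was sequenced from cells given an expression plasmid for Flag-tagged FLII (flightless I, an actin-remodelling protein) and from cells given the empty Flag plasmid, both delivered in a pCMV plasmid with a lipid transfection reagent, at passage 15 to 18. The other line, HBE, is labelled as lung epithelial. In it FLII was stably knocked down by lentiviral shRNA, with a control called NC, and its 6 matching libraries serve only to show which H1299 values recur in a second line.

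Polyadenylated RNA is made and spliced in the nucleus and then exported to the cytoplasm, where ribosomes translate it. Some transcripts, such as the long noncoding RNAs MALAT1 and NEAT1, stay largely in the nucleus. If a cell's RNA is only cytosolic plus nuclear RNA, and the libraries are made alike, a gene's share of the whole lies between its shares in the fractions. Genes outside that range are the subject here.

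Each group had 1 library, so the FLII overexpression and vector libraries of a kind of RNA stood in for replicates after a common treatment effect was removed. The p-values therefore measure the spread left between these libraries, which may be technical and was mostly pooled across genes by the test. Sources used here do not say how the fractions were separated, or whether whole and fractionated RNA came from the same cultures or the same round of library preparation, so preparation and kind of RNA cannot be told apart. Reads assigned to genes totalled 5943676 to 8344359 per mRNA library and 6243700 to 9259569 per fraction library. MALAT1 was at 199 and 144 CPM in the FLII and vector mRNA libraries, 49.96 and 42.7 CPM in cytosol and 517 and 429 CPM in nuclear RNA, and so marked the nuclear libraries. The H1299-typical genes VIM, CDH2, ZEB1 and AXL were present in all 6 libraries. KRT5 is a basal keratin typical of the HBE cells. It was at 1.03 and 2.94 CPM in mRNA, 32.6 and 1.36 CPM in cytosol and 1.20 and 1.26 CPM in nuclear RNA. KRT17, also HBE-typical, was at 4.95 and 16.3 CPM in mRNA, 101 and 5.85 CPM in cytosol and 5.7 and 2.98 CPM in nuclear RNA. The FLII cytosol library thus stood apart from its vector counterpart in HBE-typical transcripts. For both keratins the vector mRNA library was next highest, but not for SFN (0.77 CPM, against 0.84 CPM in FLII mRNA).

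Whole mRNA fell outside the range of the fractions for a large part of the genes, in both directions. Values are CPM, read counts divided by library sizes that were adjusted with TMM factors, and are compared only within a gene. A gene was called when edgeR's quasi-likelihood test gave an adjusted p under 0.05 and the log2 ratio of mRNA to the mean of cytosol and nuclear RNA was at least 1 in size. By this rule 2658 genes (19.7%) were higher and 2878 genes (21.3%) were lower in mRNA. The 2 ratios, from FLII libraries alone and from vector libraries alone, differed by a median of 0.17 on the log2 scale over all genes tested. Of the 5536 called genes 5529 had the same sign in both, which the call from these same libraries largely fixed in advance. With the further demand that both mRNA libraries lay outside all 4 fraction libraries and at least 2-fold from each fraction, 1657 genes (12.3%) were above the range and 1842 genes (13.7%) below it. Without any size limit, mRNA lay above all 4 fraction libraries for 32.5% of genes, below them for 31.4% and among them for 36.1%.

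The balance of the directions depended on the scaling. On plain shares of each library's total reads, the scale on which the mixture argument is exact, the median log2 ratio of all genes was 0.58, against 0.01 after TMM scaling. On that scale 3112 genes were above the range and 1009 below it, and 76.5% of called genes were higher, against 48% after TMM scaling. Directions given below are relative to the TMM scale, and those that turn on plain shares are named.

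**Figure D1:**
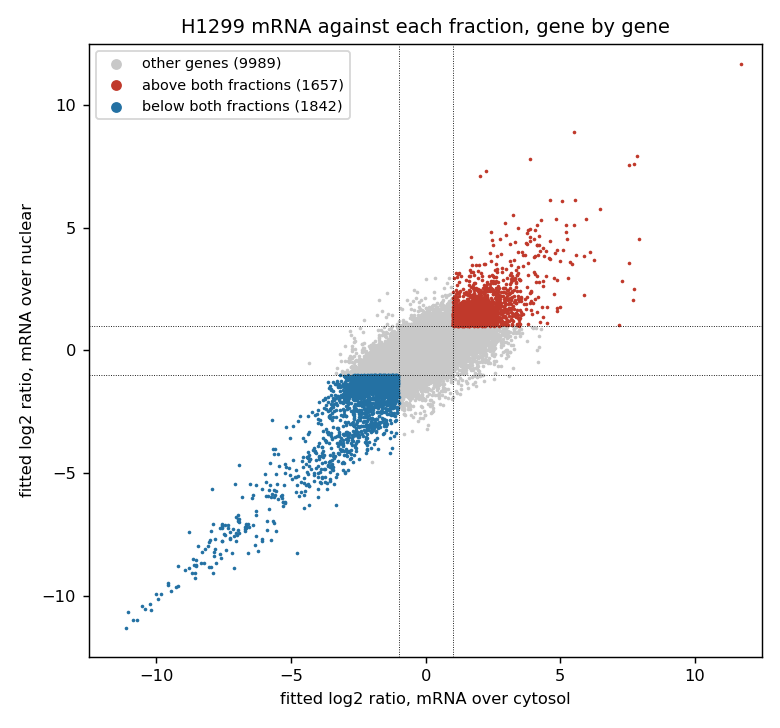
Fitted log2 ratio of H1299 whole mRNA over cytosol (horizontal) and over nuclear RNA (vertical) for the 13488 genes tested; each point is a gene. The 1657 genes above both fractions sit at the upper right and the 1842 below both at the lower left, where a tail of genes reaches log2 ratios under -5; dotted lines mark a 2-fold difference.

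FLII itself was at 2123 and 473 CPM in the FLII and vector mRNA libraries, 1286 and 385 CPM in cytosol and 1064 and 291 CPM in nuclear RNA. Every FLII library was above the vector library of its kind, as the labels say. The log2 ratio of mRNA to the fractions was 0.69 (SE 0.12, adjusted p = 1.06e-06 by edgeR's quasi-likelihood test), under the 2-fold limit, and it passed that limit on plain shares (1.26).

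Of the 19 named genes farthest above the range, 10 belong to families of near-identical copies or shared exons, whose reads a counting method can split between members. GAGE12G, a cancer-testis antigen gene, had 54.1 and 58.8 CPM in mRNA and no read in any of the 4 fraction libraries. Against a floor of 3 counts over the fraction libraries it was at least 467-fold higher in mRNA. The sum of the GAGE genes went the other way, at 1527 and 1418 CPM in mRNA, 4143 and 3502 CPM in cytosol and 5421 and 5677 CPM in nuclear RNA, a log2 ratio of -1.64. EIF3C, a subunit of translation initiation factor eIF3, had 58.1 and 61.8 CPM in mRNA, 1.80 and 0.95 CPM in cytosol and 0.45 and 1.26 CPM in nuclear RNA. Added to its copy EIF3CL, it had a log2 ratio of 0.33, against 5.83 alone. For NOMO2 the ratio was 5.01 alone and 1.10 summed over the NOMO genes. SRGAP2B and PKD1P1 kept a large ratio when summed with their copies, at 2.22 for the SRGAP2 genes and 2.48 for PKD1 with its copy. Protocadherin gamma genes, whose transcripts share their 3′ exons, likewise stood at 4.26 for PCDHGC3 and 5.05 for PCDHGA3 but at 0.32 summed. The pseudogenes GTF2IP1, WASH7P and SMG1P1 had log2 ratios of 5.37, 4.59 and 3.30. The summed ratio was 0.87 for GTF2I with its copy, 1.49 for SMG1 with its copy and -0.72 for the WASH genes.

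Other genes far above the range have no such copy among the families summed. KIRREL, a nephrin-like adhesion protein, had 62.7 and 54.4 CPM in mRNA, 2.48 and 0.95 CPM in cytosol and 1.65 and 1.73 CPM in nuclear RNA (log2 ratio 5.16, SE 0.19, adjusted p = 2.33e-28, edgeR). TGFBRAP1, a TGF-beta receptor-associated protein, followed at 4.89, the phosphatase PPTC7 at 4.44, the nuclear receptor coactivator NCOA2 at 4.27 and PRKAR2A, a regulatory subunit of protein kinase A, at 4.05. ASXL2, a Polycomb-associated chromatin protein, reached 3.96 and SALL3, a zinc finger transcription factor, 3.92. The zinc finger gene ZNF192 had a ratio of 5.65 and the noncoding FLJ45445 of 4.88. By the rule that named these genes, their mRNA and fraction libraries cannot overlap.

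Below the range, the extreme genes were nearly absent from whole mRNA yet present at an even level in all fraction libraries. CALHM3, which encodes a calcium homeostasis modulator channel, had no read in either mRNA library, 32.0 and 43.1 CPM in cytosol and 51.7 and 36.4 CPM in nuclear RNA, at least 252-fold lower in mRNA against a floor of 3 counts over the 2 mRNA libraries. On the same floor ATP1A4, a testis sodium pump subunit, was at least 205-fold lower, LRRC10, a cardiac leucine-rich repeat protein, at least 198-fold lower, and DBH, the enzyme that makes noradrenaline, at least 107.5-fold lower. DHRS9, LRRC31, LMAN1L and PIK3R5 were without a read in mRNA as well, at least 84.8-fold to 153-fold lower. TBX19, a pituitary T-box factor, had 0.56 and 0.77 CPM in mRNA, 91.8 and 122 CPM in cytosol and 115 and 88.4 CPM in nuclear RNA (log2 ratio -7.30, SE 0.24, adjusted p = 7.41e-30, edgeR). PRELP, a matrix proteoglycan, had a log2 ratio of -6.92, and NTN5, a netrin with 2 reads in mRNA, was 451-fold lower (95% counting interval 125 to 3729). Several of these genes are known for roles in other tissues than lung.

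Copies of abundant short genes made up most of the others. RPL23P8, a pseudogene of the ribosomal protein gene RPL23, had 0.56 and 0.13 CPM in mRNA, 151 and 138 CPM in cytosol and 146 and 152 CPM in nuclear RNA. The sum of RPL23 and its copy was also lower in mRNA, at 270.4 and 279 CPM, against 1159 and 1165 CPM in cytosol and 1221 and 1246 CPM in nuclear RNA, a log2 ratio of -2.12 for the sum and -8.54 for the copy. Of the copies of the cyclophilin gene PPIA, PPIAP30 had no read in mRNA and was at least 136-fold lower, and PPIAL4F had 1 read and was 1211-fold lower (interval 217 to 47860); PPIA summed with its copies had a log2 ratio of -1.12. ATP5L2 had no read in mRNA either and was at least 202.5-fold lower, and summed with ATP5L, a subunit of the mitochondrial ATP synthase, it had a log2 ratio of -1.95. With 2 or 3 reads in mRNA, LOC644936 was 427-fold lower (118 to 3528), NACAP1 314-fold (107 to 1526), MTRNR2L10 294-fold (100.4 to 1429) and RPL19P12 255-fold (87.0 to 1239).

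In all, 41 genes were at 1 CPM or less in both mRNA libraries and at 10 CPM or more in each fraction library; this limit was chosen after the values were seen. They comprised 29 genes with a protein-coding (NM) accession and 12 with a noncoding (NR) one, and 13 of them had no read in mRNA. Together they took 0.087% to 0.14% of the reads in the fraction libraries. Their levels were close over the fractions: the highest of the 4 fraction libraries was a median of 1.49 times the lowest, against 1.76 times for the other genes among the 7292 with 10 CPM or more in each fraction library. Likewise the log2 ratio of nuclear to cytosolic RNA had an interquartile range of 0.39 in the 41 genes and 1.23 in those other genes. In HBE, 33 of the 41 were again at 1 CPM or less in both mRNA libraries and at 1 CPM or more in all 4 fraction libraries (12-library scaling), as were 34 of the other 7251 genes. The HBE fraction level of the 41 genes was a median of 0.40 times the H1299 level, against 1 for those other genes, and the part of this lower level in the count of 33 was not tested. The opposite limit, 10 CPM or more in both mRNA libraries and 1 CPM or less in every fraction library, held for 4 genes, namely GAGE12G, ZNF192, GTF2IP1 and PCDHGC3.

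**Figure D2:**
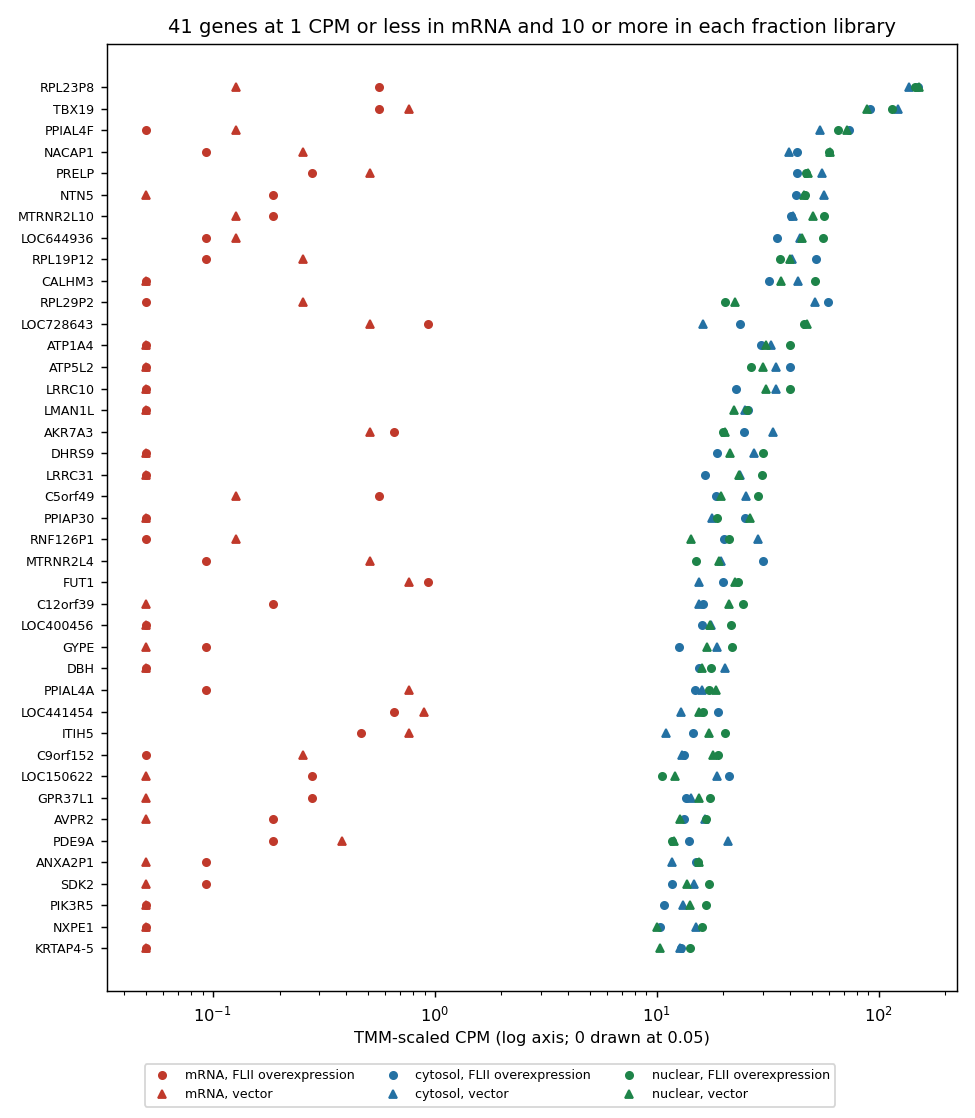
Scaled CPM (horizontal, log axis, 0 drawn at 0.05) of the 41 genes at 1 CPM or less in H1299 mRNA and 10 or more in each fraction library; each row is a gene and each point a library, with circles for FLII overexpression and triangles for vector. The red mRNA points stay at or left of 1 while the blue cytosol and green nuclear points of a gene lie close together, as the median ratio of 1.49 between highest and lowest fraction library shows.

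Transcript length separated the 2 sides of the range. Genes above it had a median transcript length of 4857 bases and genes below it of 1770 bases, against 2976 bases for the genes in neither set. Among the 93 genes of 500 bases or less, none was above the range and 59.1% were below it, with a median log2 ratio of -1.70. Among the 740 genes over 8000 bases, 33.4% were above and 7.03% below, with a median of 1.02. The medians of the 8 length classes followed the order of length. Across genes, Spearman's rho between length and the log2 ratio was 0.52, at 0.53 against cytosol alone and 0.42 against nuclear RNA alone, and 0.60 in HBE over 11792 genes with at least 50 reads there. Genes share libraries and are not independent replicates, so no p is given.

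The same difference is seen in the reads of each library before any scaling. The median read came from a transcript of 2783 and 2760 bases in the FLII and vector mRNA libraries, 1661 and 1743 bases in cytosol and 2105 and 2072 bases in nuclear RNA. Transcripts over 4000 bases took 28.7% and 28.3% of the mRNA reads, 10.9% and 11.8% of cytosolic and 17.3% and 16.6% of nuclear reads. Nuclear RNA lay between cytosol and mRNA on both measures, so whole mRNA was beyond the nuclear side of the range. GC content ran the other way, with a Spearman's rho of -0.32 with the log2 ratio over the 13277 genes (98.4%) that have a GC value, and of -0.23 after the length trend was subtracted. When the length trend was subtracted from every gene, 1578 genes (11.7%) were called higher and 1963 (14.6%) lower. Only the ratios changed, and the test was not redone. The adjusted p and the order of the libraries stayed those of the unsubtracted ratio. Of the genes off the range, 712 of the 1657 above and 979 of the 1842 below were off it in the same direction after that subtraction. Part of this overlap was fixed in advance, since the order of the libraries was kept.

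**Figure D3:**
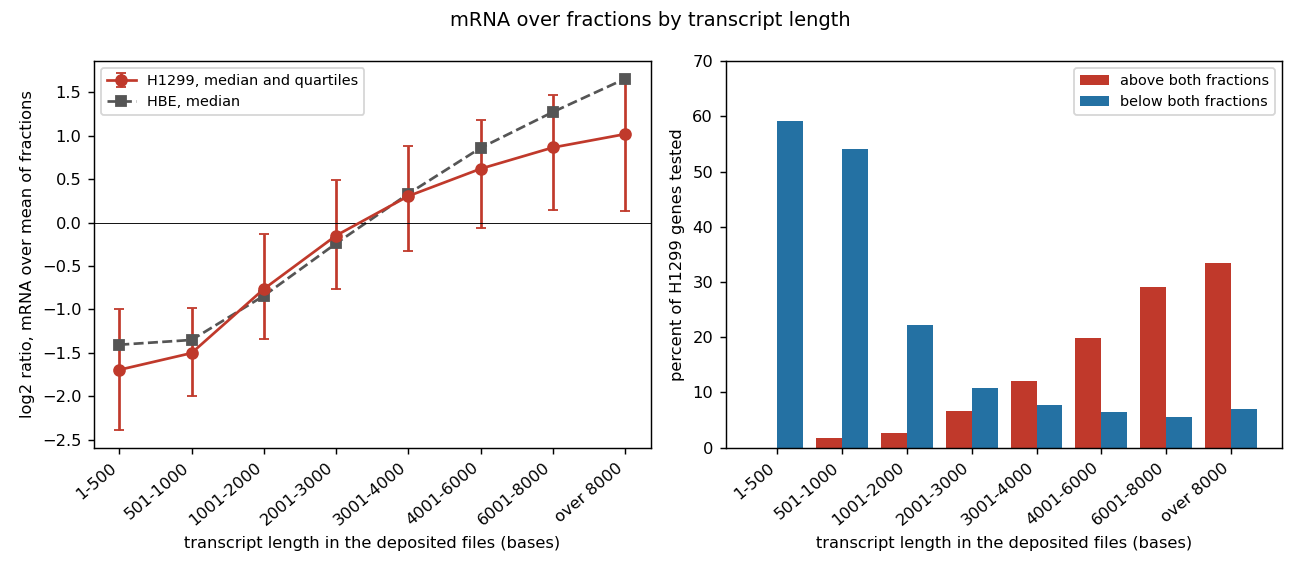
Left, log2 ratio of mRNA to the mean of the fractions by transcript length class, as H1299 median with quartiles (red) and HBE median (grey squares); right, percent of the H1299 genes tested in each class that lay above (red) or below (blue) both fractions. The H1299 median climbs with length, at -1.70 in the shortest class and 1.02 in the longest, and the share below the range is 59.1% in the shortest class and 7.03% in the longest.

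Genes of the ribosome and of mitochondrial respiration were low in whole mRNA. The 87 cytosolic ribosomal protein genes, which encode the protein part of the ribosome, took 7.91% and 8.11% of the reads in the FLII and vector mRNA libraries, 18.95% and 17.9% in cytosol and 15.5% and 16.1% in nuclear RNA. Of these 87 genes 68 fell (78.2%, against 21.3% of all genes), 54 of them below the range, and 1 rose, with a list median of -1.63. RPL35 had 916 and 877 CPM in mRNA, 10440 and 9836 CPM in cytosol and 3911 and 4172 CPM in nuclear RNA (log2 ratio -2.84, SE 0.16, adjusted p = 2.2e-21, edgeR). RPL7L1, a ribosome biogenesis factor that carries an RPL symbol, was the gene that rose, at 63.9 and 56.9 CPM in mRNA, 29.7 and 25.4 CPM in cytosol and 23.3 and 24.96 CPM in nuclear RNA. With the length trend subtracted, the list median was -0.09, with 2 genes higher and 13 lower, and RPL35 was no longer past the 2-fold limit (-0.89).

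Ribosomal protein transcripts characteristically begin with a run of pyrimidines, the 5′ TOP tract, so the start sites of named and of abundant fallen members are shown. Members without a matched window, and those on a chromosome excluded from the choice, were passed over. The lines give 10 bases before and 20 bases from the RefSeq start in GRCh38.p14, 5′ to 3′, with a CTTTC in capitals.
RPL35 (chr9:124861938-124861967, minus strand): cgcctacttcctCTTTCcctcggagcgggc
RPS19 (chr19:41860245-41860274, plus strand): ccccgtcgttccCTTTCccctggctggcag
RPS16 (chr19:39435930-39435959, minus strand): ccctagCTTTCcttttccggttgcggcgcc
RPS10 (chr6:34426050-34426079, minus strand): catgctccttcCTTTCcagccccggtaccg
RPL13 (chr16:89560647-89560676, plus strand): tgctatcatcccagagtgcattgcggggcc
RPL7L1 (chr6:42879606-42879635, plus strand): gtgcggcgccgtagctaggagcggacgcca

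CTTTC was counted anywhere in the window, also before the start, where it begins in RPS16. On the strand that reads like the RNA, it was in 30 of the 68 ribosomal protein genes with a window (44.1%). It was in 28 of the 51 that fell and have a window (54.9%) and in 4.1% of all RefSeq promoters. On the other strand the shares were 1.5%, 2.0% and 3.2%. RPL13 and RPL7L1 have no CTTTC in this window, and RPL13 fell while RPL7L1 rose.

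Of 79 nuclear-encoded oxidative phosphorylation genes, 50 fell (63.3%, against 21.3% of all genes) and 1 rose (median -1.32). Of 76 mitochondrial ribosomal protein genes 36 fell (47.4%) and none rose (median -0.98). COX7A2, a subunit of cytochrome c oxidase, had 86.7 and 91.5 CPM in mRNA, 644 and 598 CPM in cytosol and 717 and 723 CPM in nuclear RNA. NDUFB2, an accessory subunit of complex I, had a ratio of -2.60, while NDUFS1, the largest subunit of complex I, rose by 1.26 on the log2 scale. MRPL54 and MRPL12, of the large mitochondrial ribosomal subunit, had ratios of -2.26 and -2.21. Subtracting the length trend brought both list medians to within 0.04 of 0, at -0.003 and -0.03. NDUFB2 (-0.72), NDUFS1 (0.97) and MRPL54 (-0.59) were then within 2-fold. Of 34 proteasome subunit genes 7 fell (20.6%, against 21.3% of all genes) and none rose (median -0.34, 0.23 on plain shares and 0.22 with the length trend subtracted); PSMB6 and PSMD13 fell the most, by 1.65 and 1.31 on the log2 scale, PSMD13 not past the 2-fold limit on plain shares (-0.74). With the length trend subtracted neither was past it (PSMB6 -0.32 and PSMD13 -0.78).

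Among translation factors (38 genes, median -0.27, 0.30 on plain shares and 0.07 with the length trend subtracted) 5 rose and 7 fell (13.2% and 18.4%, against 19.7% and 21.3% of all genes). EIF4G3, a scaffold of the cap-binding complex with a transcript of 6515 bases, rose by 2.14, whereas EEF1D and EIF3G, subunits of eEF1 and eIF3, fell by 1.59 and 1.58, EIF3G not past 2-fold with the length trend subtracted (-0.52). Of 20 aminoacyl-tRNA synthetase genes 2 rose and 1 fell (10% and 5%), namely IARS (1.79), GARS (1.63) and HARS (-1.10, and -0.53 on plain shares, which ends its call). The list median was 0.05, -0.10 with the length trend subtracted and -0.03 to 0.11 when a library was left out.

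At the other end, long transcripts of chromatin regulators were high in whole mRNA. Of 39 large chromatin proteins and methyltransferases 26 rose (66.7%, against 19.7% of all genes), 22 of them above the range, and none fell. The list median was 1.54 and its median transcript length 9794 bases. MLL2 (now KMT2D), a histone H3 methyltransferase with a transcript of 19419 bases, had 307 and 268 CPM in mRNA, 38.3 and 39.7 CPM in cytosol and 40.3 and 37.8 CPM in nuclear RNA (log2 ratio 2.87, SE 0.11, adjusted p = 5.01e-28, edgeR). CREBBP, the histone acetyltransferase CBP, had 95.9 and 88.2 CPM in mRNA, 11.5 and 8.98 CPM in cytosol and 13.5 and 12.9 CPM in nuclear RNA. In this list the median with the length trend subtracted was 0.48, with 12 genes higher and none lower.

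Transcripts of membrane and secreted proteins were also high. Of 31 growth factor receptors 14 rose and 1 fell (45.2% and 3.23%, against 19.7% and 21.3% of all genes), with a median of 0.87. EGFR, the epidermal growth factor receptor, had 48.2 and 39.4 CPM in mRNA, 2.03 and 1.91 CPM in cytosol and 5.11 and 5.65 CPM in nuclear RNA (log2 ratio 3.74, SE 0.17, adjusted p = 2.29e-24, edgeR). TGFBR2, the type II TGF-beta receptor, rose by 2.46, and ERBB3, a receptor for neuregulins, fell by 1.72. Of 30 integrin and laminin genes 13 rose and 3 fell (43.3% and 10%), with a median of 0.75. ITGA8 and ITGA1 rose by 3.48 and 3.31 (SE 0.49 and 0.54), with at most 6 and 9 reads in any fraction library. The leukocyte integrin ITGAX fell by 2.17. ITGAL, another leukocyte integrin, had 1 read in mRNA and was 74.0-fold lower (12.98 to 2952). Of 29 other matrix and adhesion genes 13 rose and 3 fell (44.8% and 10.3%), with a median of 0.82. NID1, a basement membrane linker, and FBN2, a fibrillin, rose by 2.85 and 2.69, and the collagenase MMP1 and the inhibitor TIMP1 fell by 1.91 and 1.54, TIMP1 not past 2-fold on plain shares (-0.97) or with the length trend subtracted (-0.26). Of 12 collagens 5 rose (41.7%) and none fell (median 0.67), led by COL12A1 (2.83) and COL27A1 (2.28).

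For these 4 lists the median ratio was larger against cytosol than against nuclear RNA. It was 1.23 and 0.65 for receptors, 1.24 and 0.30 for integrins and laminins, 1.74 and 0.05 for other matrix and adhesion genes, and 1.09 and 0.17 for collagens. After the length trend was subtracted, their medians were 0.15 to 0.28. Then 4 of 31 receptors were called higher and 3 lower, and of 30 integrins and laminins 6 and 5. Of 29 other matrix and adhesion genes 8 were higher and 2 lower, and of 12 collagens 3 were higher and none lower. Over all genes these shares were 11.7% and 14.6%. Of 32 genes of endoplasmic reticulum translocation and folding 3 rose and 8 fell (9.38% and 25%, against 19.7% and 21.3% of all genes). Their median was -0.07, and 0.49 on plain shares. STT3B, a catalytic subunit of oligosaccharyltransferase, rose by 3.50 and the chaperone calnexin (CANX) by 1.11, while SEC61G and SSR2, small subunits of the translocon and its associated complex, fell by 1.98 and 1.72. With the length trend subtracted CANX (0.48), SEC61G (-0.04) and SSR2 (-0.67) were within 2-fold.

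**Figure D4:**
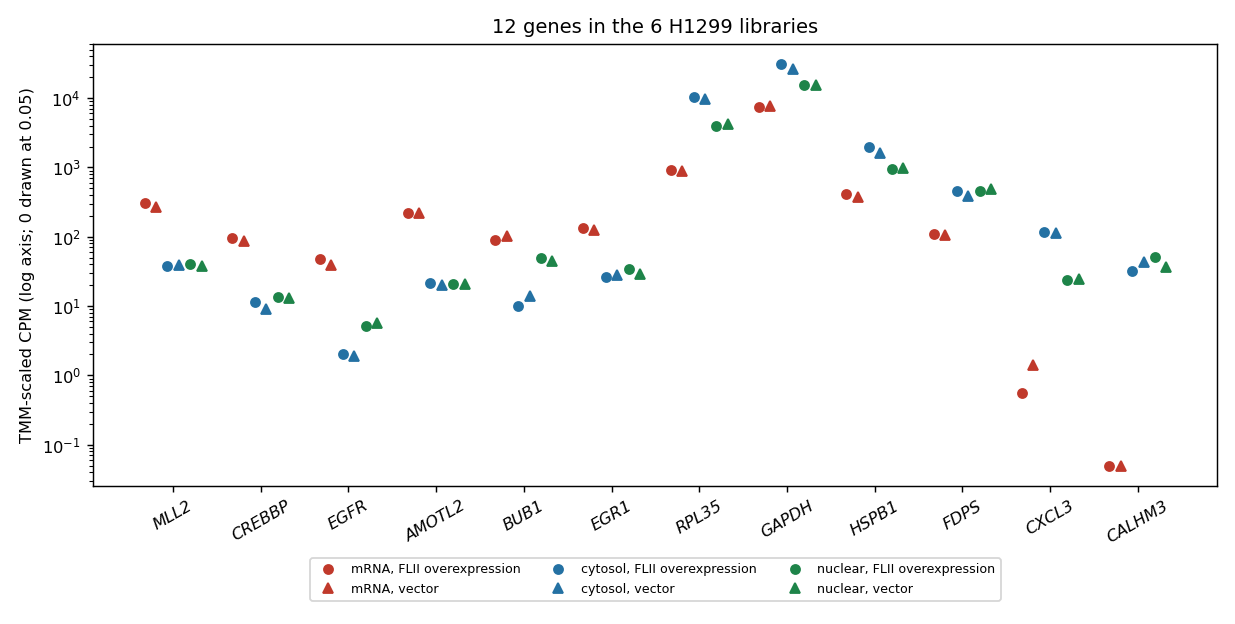
TMM-scaled CPM (log axis, 0 drawn at 0.05) of 12 genes in the 6 H1299 libraries, with mRNA in red, cytosol in blue and nuclear RNA in green, circles for FLII overexpression and triangles for vector. The first 6 genes have both mRNA points above all fraction points, as for MLL2 (307 and 268 CPM in mRNA), and the last 6 have them below, as for RPL35 (916 and 877 CPM in mRNA).

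Cytoskeletal genes went both ways. Of 46 actin cytoskeleton genes 12 rose and 5 fell (26.1% and 10.9%, against 19.7% and 21.3% of all genes), with a median of 0.16. The long SVIL (supervillin, 2.63) and MYH9 (non-muscle myosin heavy chain, 1.94) were at the top. The short TMSB10 (thymosin beta, -2.39) and MYL6 (myosin light chain, -1.53, and -0.96 on plain shares) were at the bottom. TMSB10 and MYL6 were within 2-fold with the length trend subtracted (-0.48 and -0.12). Of 48 tubulin and kinesin genes 13 rose and 9 fell (27.1% and 18.8%), with a median of 0.31. The kinesins KIF5A and KIF23 rose by 4.04 and 1.98, KIF5A with SE 0.37 and at most 5 reads in any fraction library. KIF4B, a close copy of KIF4A, fell by 3.87, and TUBB8, a beta-tubulin with 2 reads in mRNA, was 102-fold lower (28.0 to 847).

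Lists of genes that respond to the state of a culture follow. Shares given after counts that rose and fell compare with 19.7% and 21.3% of all genes tested. Immediate early genes are switched on within minutes by serum and growth factors. Of 31 such genes 9 rose (29%), 7 of them above the range, and 2 fell (6.45%). Their median was 0.39, and 0.39 with the length trend subtracted. EGR1, a zinc finger transcription factor, had 133 and 127 CPM in mRNA, 26.6 and 28.2 CPM in cytosol and 34.6 and 29.2 CPM in nuclear RNA (log2 ratio 2.13, SE 0.11, adjusted p = 1.16e-22, edgeR). FOS had 22.2 and 43.4 CPM in mRNA, 7.88 and 8.03 CPM in cytosol and 9.93 and 9.11 CPM in nuclear RNA, a ratio of 1.88. IER3 and KLF6 fell by 1.33 and 1.20, under the 2-fold limit on plain shares (-0.76 and -0.63), IER3 also with the length trend subtracted (-0.37).

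SRF and YAP are transcription regulators that respond to actin tension and cell density. Of 30 target genes 12 rose (40%) and 4 fell (13.3%). Their median was 0.72, and 0.50 with the length trend subtracted. AMOTL2, a YAP-binding angiomotin, had 222 and 222 CPM in mRNA, 21.2 and 20.1 CPM in cytosol and 21.06 and 21.04 CPM in nuclear RNA (log2 ratio 3.41, SE 0.11, adjusted p = 4.24e-30, edgeR). CRIM1, a membrane regulator of BMP signalling, rose by 2.78. The contractile genes MYL9 and TAGLN fell by 2.25 and 1.50, TAGLN not past the 2-fold limit on plain shares (-0.94) or with the length trend subtracted (-0.81).

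Of 50 cell cycle and DNA replication genes 11 rose (22%, against 19.7% of all genes) and 1 fell (2%, against 21.3%), with a median of 0.42, and of 0.38 with the length trend subtracted. BUB1, a mitotic checkpoint kinase, had 89.2 and 102 CPM in mRNA, 9.90 and 14.01 CPM in cytosol and 48.7 and 45.1 CPM in nuclear RNA. MKI67, the proliferation marker, rose by 1.94 (0.76 with the length trend subtracted, within 2-fold), and cyclin E1 (CCNE1) fell by 1.80. Replication-dependent histone genes have mRNAs that end in a stem-loop and normally carry no poly(A) tail. Of 34 such genes 3 rose (8.82%) and 15 fell (44.1%). Their median was -0.70 as fitted, -0.14 on plain shares and 1.03 with the length trend subtracted, their median transcript length being 476 bases, and -0.37 without the FLII cytosol library. HIST1H4C fell by 3.89 and HIST1H2AG rose by 1.60, both under 14 CPM in every library.

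Interferon response genes were low in whole mRNA. Of 34 such genes 19 fell (55.9%), 17 of them below the range, and 2 rose (5.88%). Their median was -1.25, -0.68 on plain shares and -0.69 with the length trend subtracted. The list took 0.18% and 0.17% of the reads in the FLII and vector mRNA libraries, 0.58% and 0.50% in cytosol and 0.52% and 0.46% in nuclear RNA. RSAD2 (viperin) had 0.09 and 0 CPM in mRNA, 2.03 and 1.36 CPM in cytosol and 4.21 and 3.30 CPM in nuclear RNA, 50.8-fold lower (8.82 to 2037, 1 read in mRNA), and XAF1, with 2 reads in mRNA, was 22.8-fold lower (6.05 to 192.5). ISG15, a ubiquitin-like modifier outside the naming rule and picked after its values were seen, had 368 and 368 CPM in mRNA, 5115 and 3883 CPM in cytosol and 2388 and 2330 CPM in nuclear RNA. OAS3 and EIF2AK2 (PKR), which sense double-stranded RNA and have transcripts of 6627 and 4345 bases, rose by 2.02 and 1.17, EIF2AK2 not past 2-fold with the length trend subtracted (0.65).

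Genes of cholesterol and fatty acid synthesis, controlled by the SREBP factors, had 4 members that rose (12.1%) and 10 that fell (30.3%) among 33. Their median was -0.38 as fitted and -0.51 with the length trend subtracted, but 0.18 on plain shares. FDPS (farnesyl diphosphate synthase) had 111 and 107 CPM in mRNA, 464 and 381 CPM in cytosol and 461 and 495 CPM in nuclear RNA, and TM7SF2, a sterol reductase, had a ratio of -2.16. STARD4, a cholesterol carrier, rose by 1.65.

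Of 20 heat shock genes 2 rose above the range and 3 fell (10% and 15%, against 19.7% and 21.3% of all genes). Their median was 0.38. The Hsp110 chaperones HSPA4 and HSPH1 rose by 2.15 and 1.80. The small HSPE1 and HSPB1 fell by 1.82 and 1.73, both within 2-fold with the length trend subtracted (-0.58 and -0.43). Among 35 genes of the hypoxia response and glycolysis 6 rose and 5 fell (17.1% and 14.3%, median 0.17). Hexokinase HK2 was at 1.67 and PFKFB3 at 1.43. GAPDH was at -1.47 and enolase ENO1 at -1.15, both within 2-fold on plain shares (-0.90 and -0.58). HK2 (0.81), PFKFB3 (0.86) and GAPDH (-0.66) were within 2-fold with the length trend subtracted. Of 40 genes of the amino acid and unfolded protein responses 7 rose and 5 fell (median 0.15). The arginine transporter SLC7A1 rose by 2.36 and SEL1L by 1.91, and SDF2L1 and the transcription factor ATF4 fell by 2.09 and 1.59; SEL1L (0.996) and SDF2L1 (-0.76) were within 2-fold with the length trend subtracted. NF-kB and inflammatory genes had 4 that rose and 3 that fell among 19 (21.1% and 15.8%). Their median was -0.08, and 0.49 on plain shares.

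CXCL3, a neutrophil chemokine, had 0.56 and 1.40 CPM in mRNA, 118 and 113 CPM in cytosol and 23.8 and 24.7 CPM in nuclear RNA (log2 ratio -5.82, SE 0.23, adjusted p = 3.89e-27, edgeR). CXCL1, another chemokine, had a ratio of -4.85, while NFKB1 and SOD2 rose by 1.69 and 1.28. Of 26 NRF2 target and redox genes 4 rose and 3 fell (15.4% and 11.5%, against 19.7% and 21.3% of all genes). Their median was -0.32, 0.25 on plain shares and 0.24 with the length trend subtracted. ABCC2, a drug efflux pump, rose by 2.77 (SE 0.47), with at most 6 reads in any fraction library. Thioredoxin reductase TXNRD1 rose by 1.81, and the aldo-keto reductase AKR1B10, with 1 read in mRNA, was 124-fold lower (21.96 to 4930). AKR1C2 was called lower at -1.29, but the ratio was 0.45 without the FLII cytosol library, -0.32 without the FLII mRNA library and -0.72 on plain shares.

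Of 30 lysosome and autophagy genes 4 rose and 3 fell (13.3% and 10%, against 19.7% and 21.3% of all genes). Their median was -0.27, 0.30 on plain shares and 0.08 with the length trend subtracted. The cholesterol exporter NPC1 and the autophagy kinase ULK1 rose by 1.69 and 1.30, and TFEB, the master regulator of lysosomal genes, and NPC2 fell by 2.72 and 1.50, NPC2 not past 2-fold on plain shares (-0.93). ULK1 (0.64) and NPC2 (-0.19) were within 2-fold with the length trend subtracted. Metallothioneins, short metal-binding proteins, had 6 members tested. MT1A, MT1G and MT1M fell (50%, against 21.3% of all genes) and none rose. The list median was -2.25, -1.70 on plain shares and -0.25 with the length trend subtracted. Their median was -0.72 without the vector nuclear library, -3.63 without the FLII cytosol library and -4.23 without the vector mRNA library. MT1A had no read in mRNA and 3.30 to 4.28 CPM in the fraction libraries, at least 22.8-fold lower. MT2A, the most abundant, had 483 and 507 CPM in mRNA, 1226 and 1070 CPM in cytosol and 585 and 621 CPM in nuclear RNA, a ratio of -0.75, and MT1X had -0.49, and 0.074 on plain shares. MT1E had -0.52, and 0.051 on plain shares (adjusted p = 0.55, edgeR), with 7.88 CPM in the FLII cytosol library and 1.28 CPM or less in the others.

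Genes that act in the nucleus on RNA were split. Of 44 mRNA export and nuclear pore genes 12 rose and 5 fell (27.3% and 11.4%, against 19.7% and 21.3% of all genes), with a median of 0.42. The nucleoporins NUP155 and NUP160 rose by 2.72 and 1.97, and the export adaptor ALYREF and THOC6 fell by 1.84 and 1.59. Of 73 splicing and hnRNP genes 11 rose and 9 fell (15.1% and 12.3%), with a median of 0.06. PRPF8 and HNRNPUL1 rose by 1.42 and 1.39, and SNRPG fell by 2.16. With the length trend subtracted ALYREF (-0.76), THOC6 (-0.79), PRPF8 (0.55), HNRNPUL1 (0.90) and SNRPG (-0.42) were within 2-fold. PTBP1, a splicing repressor with a transcript of 3281 bases, had 695 and 656 CPM in mRNA, 5473 and 9532 CPM in cytosol and 9329 and 6689 CPM in nuclear RNA, a ratio of -3.52 (SE 0.19, adjusted p = 1.02e-21, edgeR). The treatments ordered oppositely in its cytosol and nuclear libraries, and both mRNA libraries were far below all 4.

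Zinc finger ZNF genes are mostly KRAB repressors of the genome's repeats. Of 457 such genes 131 rose and 43 fell (28.7% and 9.41%, against 19.7% and 21.3% of all genes). Their median was 0.45, and 0.18 with the length trend subtracted. ZNF192 rose by 5.65, and ZNF699, with 2 reads in the fractions, was 48.2-fold higher (12.9 to 405). ZNF501 had no read in mRNA and was at least 12.8-fold lower. ZNF665 fell by 5.10 and had 1.59 and 1.79 CPM in mRNA, 60.3 and 66.0 CPM in cytosol and 53.7 and 53.5 CPM in nuclear RNA.

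Coding and noncoding genes were set side by side: 338 of 1329 genes with an NR accession (25.4%) and 12.4% of 12159 with an NM accession were below the cytosol-nucleus range, and 7.83% of NR and 12.8% of NM genes were above it. Of 15 nuclear long noncoding RNAs 3 rose and 5 fell (20% and 33.3%, against 19.7% and 21.3% of all genes). Their median was -0.77, -0.48 without the FLII mRNA library and 0.27 for those with at least 500 reads. TUG1 rose by 1.95 and NEAT1 by 1.22. RMRP, the RNA of RNase MRP, fell by 3.12, and the imprinted MEG3, with 3 reads in mRNA, was 81.2-fold lower (27.6 to 396). NEAT1 had 84.6 and 62.0 CPM in mRNA, 16.9 and 11.97 CPM in cytosol and 67.2 and 69.7 CPM in nuclear RNA, so its mRNA lay around the nuclear level. Of 16 snoRNA host genes, which carry small nucleolar RNAs in their introns, 7 fell and 1 rose (43.8% and 6.25%). Their median was -0.71, and 0.02 with the length trend subtracted. SNHG6 and SNHG15 were at -2.15 and -1.87. SNHG4 was at 1.13 (0.95 without the FLII mRNA library and 0.96 without the FLII cytosol library, its call being lost). Subtracting the length trend brought NEAT1 (0.85), RMRP (-0.73), SNHG6 (-0.23) and SNHG15 (-0.45) to within 2-fold.

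Few small RNA genes had enough reads. Of the small nucleolar and Cajal body RNAs in the files 6 were tested, at 8.27 CPM or less in every library. SNORD96A, SNORA10, SCARNA12, SNORA67 and SNORA76 fell and SCARNA17 rose (83.3% and 16.7%, against 21.3% and 19.7% of all genes). Their median was -1.48. With the length trend subtracted the median was 1.16, but few genes set the curve at such short lengths. On plain shares SNORA67, SNORA76 and SCARNA12 were not past the 2-fold limit (-0.88, -0.62 and -0.96). Without the FLII mRNA library SNORA67 had -1.07 (adjusted p = 0.108, edgeR). Of 1321 microRNA primary genes 10 were tested, of which 6 fell and 1 rose (60% and 10%). Their median was -1.85, -1.29 on plain shares, -0.92 without the FLII nuclear library and -1.22 without the FLII cytosol library. MIR4461 and MIR4647 had no read in mRNA and were at least 41.5-fold and 13.2-fold lower. MIR600HG rose by 1.30 (0.54 with the length trend subtracted, within 2-fold).

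Cell identity genes were read with the FLII cytosol library in view. Of 10 H1299 mesenchymal and lineage markers 5 rose and 2 fell (50% and 20%, against 19.7% and 21.3% of all genes). Their median was 1.04. Fibronectin (FN1) and ZEB2, a repressor of epithelial genes, rose by 2.07 and 1.94, ZEB2 not past 2-fold with the length trend subtracted (0.93), and the cancer-testis antigens CTAG2 and GAGE1 fell by 2.93 and 2.09. Of 20 HBE epithelial and basal markers 3 rose and 5 fell (15% and 25%, against 19.7% and 21.3% of all genes). Their median was -0.88, at -1.59 in the FLII libraries and 0.46 in the vector libraries. It was 0.37 without the FLII cytosol library and 0.67 without the FLII mRNA library, against -1.62 without the vector mRNA library and -0.33 without the vector nuclear library. Their summed share was 0.18% and 0.20% of the reads in the FLII and vector mRNA libraries, 0.27% and 0.22% in cytosol and 0.22% in both nuclear libraries. Their part in the other results was not tested; without the FLII cytosol library 1588 genes were above the range and 1762 below it.

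Most of the off-range genes of H1299 were called the same way in HBE. Of the 1442 above-range genes with at least 50 reads in HBE, 1157 (80.2%) were also called higher there, against 27.1% of all 11792 genes, and 1 was called lower. Of 1423 below-range genes 984 (69.1%) were also called lower, against 20.7% of all, and 25 were called higher. The lines share no library but do share the unknown preparation of each kind of RNA. A test of the difference between the lines (edgeR, 12 libraries) called 971 genes (7.20%) with a ratio higher in H1299 and 1460 (10.8%) with a ratio lower in H1299.

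Ribosomal protein genes had a median of -1.63 in H1299 and -1.07 in HBE with 1 of 87 genes called different, and the large chromatin genes 1.54 and 1.90 with 10 of 39. Interferon response genes had a median of -1.09 in H1299 and -0.06 in HBE over the 26 measured in both, and of the 34 tested 12 were called lower and 1 higher in H1299. For the 33 cholesterol and fatty acid genes the medians were -0.38 in H1299 and 0.72 in HBE, with 13 lower in H1299 and none higher. For the 50 cell cycle genes they were 0.42 and -0.24, with 15 higher in H1299 and none lower. AMOTL2 had ratios of 3.41 in H1299 and 0.90 in HBE (difference 2.57, adjusted p = 1.47e-09, edgeR), and FLII itself 0.69 and -0.34.

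**Figure D5:**
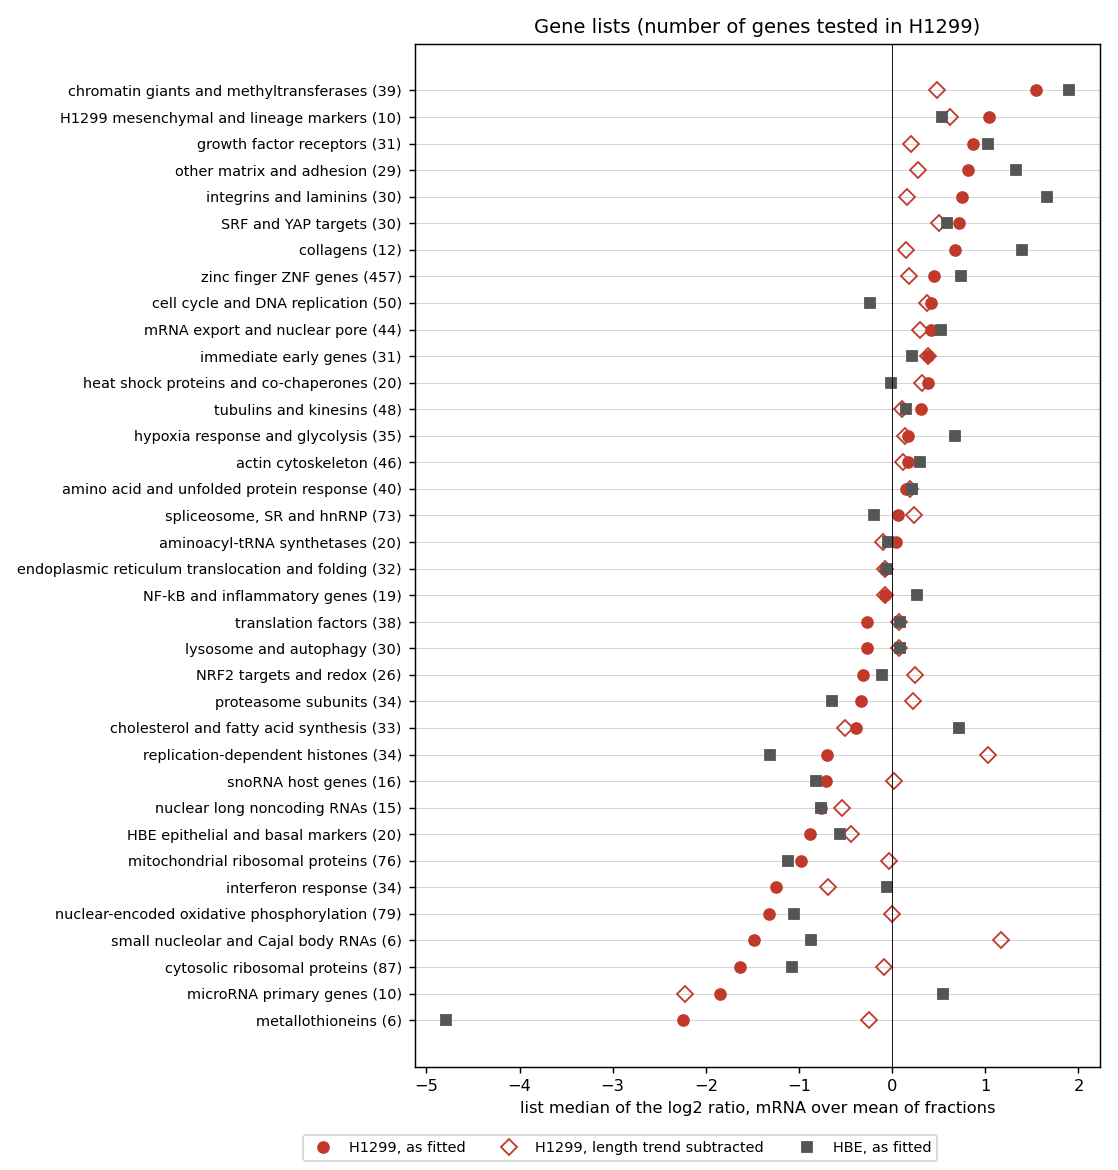
Median log2 ratio of mRNA to the mean of the fractions for 36 gene lists, with H1299 as fitted (red circles), H1299 after subtracting the length trend (open diamonds) and HBE as fitted (grey squares). In H1299 the median of the ribosomal protein genes is -1.63 as fitted and -0.09 with the length trend subtracted, and that of the interferon response genes -1.25 and -0.69; the HBE interferon median is -0.06, and the difference of the list between the lines was not tested.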

How the data were processed

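Per the file headers, each deposited table lists 23709 RefSeq genes with transcript length, raw read count and RPKM. The deposited RPKM equals the count scaled to length and library total, as checked on the values. The submitters' processing notes name the builds GRCh37 and hg19. Which aligner and which counter were used is not given in the sources used here. Counts were kept for 13488 genes with at least 50 reads over the 6 H1299 libraries and scaled by TMM. They were fitted by edgeR 4.0.16 (R 4.3.3) quasi-likelihood with kind of RNA and treatment as terms, which leaves 2 residual degrees of freedom. The spread of each gene was moderated toward that of all genes, with 47.2 prior degrees of freedom. The p-values were adjusted by Benjamini-Hochberg over all genes kept. The difference between lines used 12 libraries with treatment nested in line. A loess curve on log2 length (span 0.5) gave the length trend. Subtracting it changed the ratios only, and calls after it used the adjusted p and library order of the unsubtracted fit. GC content came from GENCODE transcripts matched by RefSeq accession, otherwise by symbol. Alternatives were RLE scaling, total counts, 3 other read filters, DESeq2 1.42.0, limma 3.58.1 on RPKM, an arithmetic mean of the fractions, prior count 5, no treatment term, other thresholds and leaving out ribosomal protein genes, line-specific genes or libraries.

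The members and gene lists were chosen with earlier results of these data known. Named genes are FLII; per direction the 14 NM and 5 NR genes off the range, with at least 200 reads, that have the widest gap between mRNA and fraction libraries; and per list the 2 highest and 2 lowest called members, or all members of lists with fewer than 10 genes. Symbols that look like dates were not named, and a few genes that the rule names are not reported here. RNC libraries were not used here, since FLII and line-typical genes went against their labels. Floors cover counting error only, and a fold against no reads is a bound at 3 counts over the group's libraries; with 1 to 3 reads in a group, folds are given with exact binomial 95% intervals. Promoter windows are from RefSeq, matched by symbol (68 of 87 ribosomal protein genes).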

Additional observations from a re-analysis of the deposited data

Results flagged for a closer look

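The ratio of mRNA to the fractions differed between the lines, by a test of the difference itself, for 971 genes higher in H1299 and 1460 lower in H1299 (7.20% and 10.8% of genes tested). The log2 differences that follow are H1299 minus HBE, each past an adjusted p of 0.05 by edgeR. Above-range genes with a higher ratio in H1299 were TGFBRAP1 (2.97), EIF3C (2.47), PCDHGC3 (2.38), KIRREL (2.28), SRGAP2B (1.73), PRKAR2A (1.72), NOMO2 (1.69), PPTC7 (1.07) and PKD1P1 (1.03). FLII was higher by 1.08; it was overexpressed in 1 line and knocked down in the other.

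Among list members the ratio was higher in H1299 for ZEB2 (4.18), MT1M (3.88), AMOTL2 (2.57), MT2A (2.23), MT1X (1.36), HNRNPUL1 (1.23), STT3B (1.16), KIF23 (1.15) and SLC7A1 (1.12). It was lower in H1299 for ZNF501 (-5.84), ITGAL (-5.09), AKR1B10 (-4.10), CXCL3 (-2.92), ERBB3 (-2.15), FN1 (-2.12), NEAT1 (-2.07), CXCL1 (-1.86), TFEB (-1.75), KLF6 (-1.57), AKR1C2 (-1.52), FBN2 (-1.48), STARD4 (-1.22), SEC61G (-1.06), FDPS (-1.01) and SEL1L (-1). ZNF501, ITGAL, AKR1B10 and MT1M had 3 reads or fewer in the H1299 mRNA libraries, so the size of their fitted differences depends on the prior count. Genes were kept for this test by their H1299 reads alone, so few reads in HBE are a further limit. ZEB2 and FN1 had adjusted p of 0.0095 and 0.047 for the difference (edgeR), against 1.47e-09 for AMOTL2.

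List medians of cholesterol and fatty acid genes were -0.28 and -0.30 in the FLII and vector libraries of H1299, and 0.94 and 0.67 in the knockdown and NC libraries of HBE, a difference of -1.09 that was not tested as a list. Those of cell cycle genes were 0.48 and 0.48 in H1299 and -0.12 and -0.38 in HBE, a difference of 0.73, likewise not tested.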

How the results depend on the processing

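With 1 library per group, p-values rest on 2 residual degrees of freedom and on spread that may be technical. They rest mostly on spread pooled across genes, which counted for 47.2 prior degrees of freedom. Higher, lower, above-range and below-range counts were 2658, 2878, 1657 and 1842 as fitted. They were 4910, 1505, 3112 and 1009 on total counts. With at least 500 reads they were 1632, 1539, 953 and 906, fewer genes being tested. With no fold minimum they were 5161, 5065, 4223 and 4098, and at adjusted p 0.01 and 4-fold 549, 919, 278 and 597. The length trend subtracted left 1578 higher and 859 above the range. Limma on RPKM called 1062 lower and 587 below it. RPKM is scaled to library totals without TMM. For that run 1 was added before the logarithm, and genes had to reach 1 RPKM in a library. The part of each of these in the fewer calls was not tested. Leaving out each library gave 2558 to 2788 higher, 2616 to 2831 lower, 1537 to 1711 above and 1610 to 1836 below. RLE, DESeq2, other filters, the arithmetic mean, no ribosomal protein genes, the GC trend, prior count 5, no treatment term and no line-specific genes kept each count within 1.5 times. With at least 500 reads 493 genes were higher and 913 lower in H1299 than in HBE; leaving out each library gave 779 to 1114 and 1095 to 1516.

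Signs turned for MT1E (0.051 on total counts, 1.01 in DESeq2, -1.35 to 2.87 when a library was left out), MT1X (0.074 on total counts, 0.074 on RPKM) and AKR1C2 (-2.03 to 0.45 when a library was left out). Subtracting the length trend turned MT1X (1.56), MT2A (1.28), MT1E (1.34), SNORA10 (0.60), SNORA67 (1.46), SNORA76 (1.76) and SCARNA12 (0.87). The short end of the curve rests on few genes, as 93 tested had 500 bases or less (median log2 ratio -1.70). At the lengths of the genes just named the curve lay below that median. How far their turned signs rest on this was not tested. Also turned were the list medians of histones (1.03), snoRNA host genes (0.019), small nucleolar RNAs (1.16), translation factors (0.074), aminoacyl-tRNA synthetases (-0.103), NRF2 targets (0.24), lysosome genes (0.078) and proteasome subunits (0.22). The median of nuclear noncoding RNAs was 0.27 with at least 500 reads, and that of HBE markers -1.62 to 0.67 when a library was left out. Leaving out a library also moved small medians by over 1.5 times, namely NF-kB (-0.29 to -0.02), unfolded protein response (0.04 to 0.23), splicing (0.03 to 0.17), endoplasmic reticulum (-0.16 to -0.03), and, without FLII mRNA, hypoxia (0.28), actin (0.26) and translation factors (-0.18). Treatment paired the libraries and was a term of the fit; without it the 4 counts were 2655, 2864, 1649 and 1835. Of the named genes, subtracting the length trend ended the call of 42 without turning its sign.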
